A study of Mus musculus with 6 samples.

Results

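Cholesterol synthesis, uptake and handling genes were followed in 6 mouse livers. The set holds 26 genes, chosen by name for their step in the pathway, out of 24341 gene symbols in the deposited table. Of these, 8 encode enzymes of the mevalonate and isoprenoid steps, 11 encode enzymes of the squalene and late sterol steps, 3 act in uptake or in transport inside the cell, and 4 act in efflux or esterification. All 26 were found, and all 26 reached at least 1 FPKM in at least 3 libraries, the level a gene needed to be tested. FPKM gives the sequenced fragments of a gene after division by transcript length and library size, so levels can be compared between genes.

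Poly(A) RNA was sequenced from 3 livers of Prkci flox/flox AlbCre mice and 3 livers of Prkci flox/flox mice, called AlbCre livers and control livers here. Both groups were on a C57BL/6 background, carried loxP-flanked alleles of Prkci (the gene of the atypical protein kinase C lambda/iota) and ate regular chow. The sample labels state an age of 30 weeks, whereas the design text states 28 weeks. The albumin promoter directs the Cre recombinase to hepatocytes, and how strictly was not tested here. Since the controls lack Cre, the recombinase itself and the loss of Prkci cannot be told apart. The sources used here do not give sex, feeding state or hour of collection. Nor is it stated whether the samples are separate animals; the p-values then reflect only how far these 6 samples vary, which may be technical.

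Prkci stood at 5.70, 5.26 and 4.42 FPKM in AlbCre livers 1, 2 and 3, against 5.57, 3.65 and 4.44 FPKM in control livers 1, 2 and 3. The groups overlapped (log2 difference 0.15, SE 0.17, limma with Benjamini-Hochberg adjusted p = 0.813). The sources used here do not give the deleted part of the gene, and liver holds other cells, so this value does not check the labels. Of 8 hepatocyte markers, Alb was listed at 0 in all 6 libraries and the other 7 were tested. Their summed level was 12240, 21446 and 16150 FPKM in AlbCre livers 1 to 3, and 14226 to 25891 FPKM in the controls. AlbCre liver 1 stood apart in other markers: its 4 neutrophil markers summed to 293 FPKM, against 7.88 and 11.5 FPKM in AlbCre livers 2 and 3 and 5.17 to 26.5 FPKM in the controls. Its 5 cholangiocyte markers summed to 146 FPKM, against 15.9 and 15.0 FPKM in AlbCre livers 2 and 3 and 29.4 to 59.8 FPKM in the controls. Only 2 of the 4 neutrophil and 2 of the 5 cholangiocyte markers reached the level needed for testing, so few genes may carry these sums. Macrophage markers, 8 genes, summed to 142 to 555 FPKM in AlbCre and 93.7 to 405 FPKM in control livers, and the 6 stellate cell markers to 86.8 to 167 FPKM and 94.9 to 144 FPKM. The 6 endothelial markers gave 84.4 to 160 FPKM in AlbCre and 52.6 to 176 FPKM in control livers, and the 5 erythroid markers 91.7 to 183 FPKM and 30.4 to 115 FPKM. The part of these cells in the results was not tested, and in whole liver fewer cells of a type and less RNA per cell cannot be told apart.

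Hepatocytes make cholesterol from acetyl-CoA through mevalonate, isoprenoid diphosphates, squalene and lanosterol. The genes of this pathway are classical targets of the SREBP transcription factors, which are released to the nucleus when sterol in the endoplasmic reticulum is low and held back when it is plentiful. Feeding and insulin also raise SREBP activity in liver, and the oxysterol receptors called LXR drive genes of cholesterol efflux.

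Most synthesis enzymes were low in AlbCre livers 2 and 3 but not in AlbCre liver 1. For 17 of the 19 enzymes, both AlbCre livers 2 and 3 lay below every control. Over all 10963 genes tested, the same held for 20.1%. This pair of livers was singled out after the values were seen, so the share is a description. In the 17 enzymes, AlbCre liver 2 held 5.23 to 52.4% of the control mean and AlbCre liver 3 held 8.01 to 69.0%. AlbCre liver 1 held 77.8 to 157% of the control mean for the same genes, and over the 19 enzymes it lay within the control range for 9, above it for 8 and below it for 2. Over all genes tested, AlbCre liver 1 lay within the control range for 40.8%, above it for 44.7% and below it for 14.5%, so its place among the enzymes was close to its place in the whole table.

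On the log2(FPKM + 1) scale, the mean level of the 19 enzymes relative to the control mean was 0.29, -2.25 and -1.80 in AlbCre livers 1, 2 and 3, against 0.20, 0.20 and -0.40 in control livers 1, 2 and 3. Over all genes tested the same mean was 0.18, -0.05 and -0.01 in AlbCre livers 1, 2 and 3, against 0.07, -0.06 and -0.01 in control livers 1, 2 and 3. Over the mevalonate and isoprenoid enzymes alone the mean was 0.48, -2.31 and -1.90 in AlbCre livers 1, 2 and 3. The control livers had 0.30, 0.21 and -0.51. Over the squalene and late sterol enzymes it was 0.15, -2.21 and -1.73 in AlbCre livers, against 0.12, 0.20 and -0.32 in controls. AlbCre liver 1 was thus raised over the whole table too, by less than over the mevalonate steps. AlbCre livers 2 and 3 were low over the enzymes of both parts and near 0 over all genes. AlbCre liver 2 was the lowest of all livers for 17 of the 19 enzymes, against 22.3% of all genes, and control liver 3 was the lowest control for 16, against 35.4% of all genes. The heat map of levels by liver shows this pattern gene by gene.

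**Figure D1:**
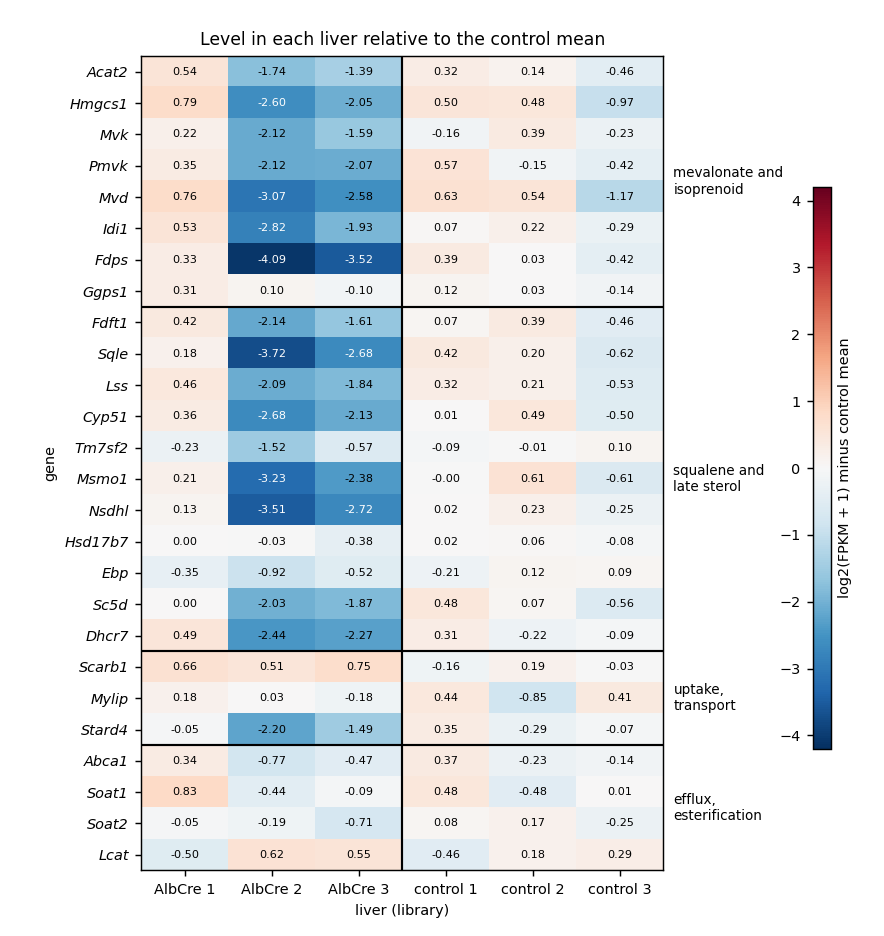
Level of each of the 26 genes (rows, grouped by step) in each liver (columns), as log2(FPKM + 1) minus the mean of the 3 control livers, with the value printed in each cell. AlbCre livers 2 and 3 are blue for most synthesis enzymes, down to -4.09 for Fdps, while AlbCre liver 1 is near 0 or above it for most.

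With 3 livers against 3, 0 of the 26 genes were called (limma with an intensity trend, Benjamini-Hochberg adjusted over all genes tested). The whole table gave 3 calls, or 0.0274% of genes tested. By mean difference 21 of the 26 were lower, as were 43.9% of all genes. At an unadjusted p under 0.05, 2 members were lower (Ebp and Tm7sf2) and 1 was higher (Scarb1), where 3.59% of all genes were lower and 6.34% higher. The groups did not overlap for the same 3 members, 2 lower and 1 higher, where 5.56% of all genes were separated in the lower and 10.7% in the higher direction. The labels state no pairing of the samples. With the replicate number as a block in limma, 10 members were lower at an unadjusted p under 0.05 (6.07% of all genes). In that fit 0 members passed the adjustment (0.0274% of all genes did).

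The median log2 difference, AlbCre minus control, was -1.29 over the 8 mevalonate and isoprenoid enzymes and -1.30 over the 11 squalene and late sterol enzymes. It was 0.01 over the 3 uptake and transport genes, -0.10 over the 4 efflux and esterification genes and 0.04 over all genes tested. For the 19 enzymes together, the median of -1.29 became -2.10 without AlbCre liver 1 and -0.70 without AlbCre liver 2.

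Leaving out AlbCre liver 1, limma called 13 of the 26 members lower, with adjusted p from 0.0122 to 0.0477 and log2 differences from -3.81 to -1.84. Of all genes, 0.684% were called lower in that fit. This liver was the one seen not to share the low levels, and leaving out any other single liver, AlbCre or control, called 0 members. The values without AlbCre liver 1 given for single genes are therefore descriptions of the other livers. The 13 were 12 synthesis enzymes and Stard4. Sample quality weights, which let limma give less weight to a library that departs from its group, called 10 members lower, all of them among these 13, and Scarb1 higher. In that fit 2.06% of all genes were called lower and 2.84% higher. The weights were estimated from the same values, so this fit is not a check separate from the fit without AlbCre liver 1. The weight of each liver is not given here. Leaving out both libraries numbered 1, Pmvk, Fdps and Dhcr7 were called lower, where 0.146% of all genes were. This fit also drops AlbCre liver 1 and was chosen after seeing the data, so it is not a separate check either.

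**Figure D2:**
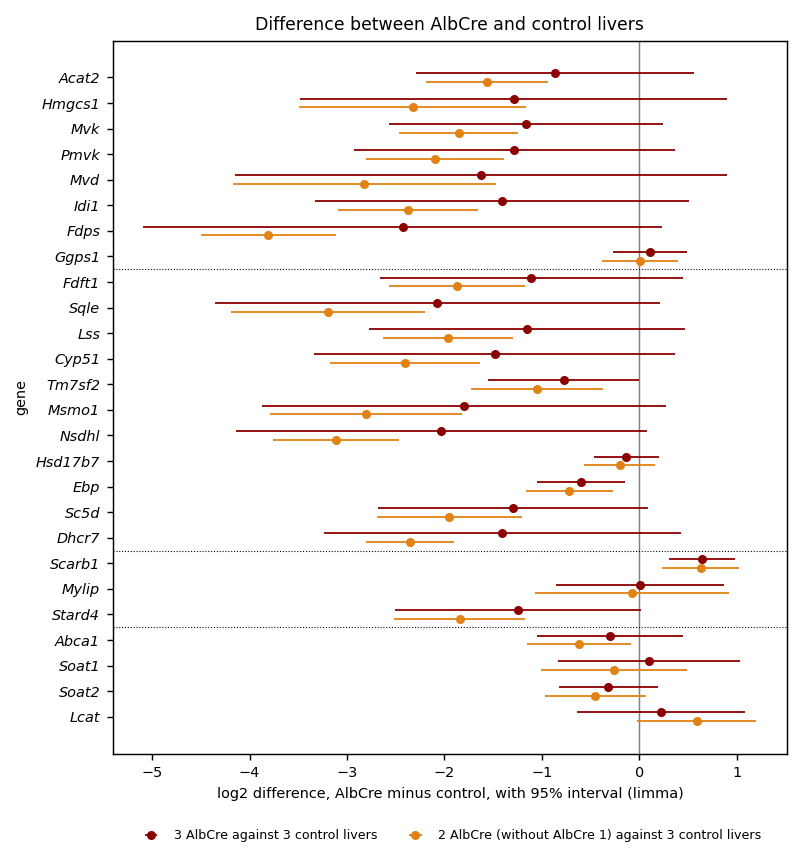
Log2 difference for each gene, AlbCre minus control, with its 95% interval from limma, for 3 AlbCre against 3 control livers (dark red) and with AlbCre liver 1 left out (orange). For most enzymes the dark red intervals cross 0 and the orange ones do not; Ggps1 and Hsd17b7 lie near 0 in both.

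Promoters were examined because most of the enzymes were low in the same livers. Windows of 250 bases before the annotated start were taken from RefSeq (build GRCm38.p6, the assembly also called mm10), which matched 20 of the 26 genes, 16 of them enzymes. Fdps, Fdft1, Sqle, Scarb1, Stard4 and Soat2 had no window. The windows below begin with Hmgcs1, which holds a match to the sterol regulatory element. Next are the 3 most abundant enzymes whose window holds no such match and touches no annotated exon (Sc5d, Ebp and Pmvk). The last window is that of Mvd, the remaining enzyme with an exon-free window. Each window reads 5′ to 3′ on the gene's own strand and ends at the base before the start. Capitals mark matches on either strand to TCACNCCAC (the sterol regulatory element bound by SREBP), CCAAT (bound by NF-Y) and GGGCGG (bound by SP1); no 2 of these matches overlap in these windows.
Hmgcs1: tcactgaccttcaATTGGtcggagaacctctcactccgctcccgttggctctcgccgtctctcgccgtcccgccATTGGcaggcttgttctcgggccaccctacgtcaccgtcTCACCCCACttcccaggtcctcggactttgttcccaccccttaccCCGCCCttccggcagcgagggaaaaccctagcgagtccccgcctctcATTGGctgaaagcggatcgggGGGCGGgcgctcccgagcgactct
Sc5d: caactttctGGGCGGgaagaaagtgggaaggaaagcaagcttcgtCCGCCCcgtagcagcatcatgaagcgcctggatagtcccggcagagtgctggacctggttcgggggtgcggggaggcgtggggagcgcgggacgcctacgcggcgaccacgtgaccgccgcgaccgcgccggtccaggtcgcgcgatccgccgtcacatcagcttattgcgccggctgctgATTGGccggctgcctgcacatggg
Ebp: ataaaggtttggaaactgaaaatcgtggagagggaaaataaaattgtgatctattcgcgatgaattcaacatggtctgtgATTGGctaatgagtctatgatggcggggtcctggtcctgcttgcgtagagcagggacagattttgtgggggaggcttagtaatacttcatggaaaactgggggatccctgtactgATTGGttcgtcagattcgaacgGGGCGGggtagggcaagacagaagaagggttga
Pmvk: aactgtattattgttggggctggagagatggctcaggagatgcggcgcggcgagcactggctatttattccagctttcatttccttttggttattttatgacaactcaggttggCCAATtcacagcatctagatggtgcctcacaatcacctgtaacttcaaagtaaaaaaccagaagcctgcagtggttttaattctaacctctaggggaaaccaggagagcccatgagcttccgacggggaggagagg
Mvd: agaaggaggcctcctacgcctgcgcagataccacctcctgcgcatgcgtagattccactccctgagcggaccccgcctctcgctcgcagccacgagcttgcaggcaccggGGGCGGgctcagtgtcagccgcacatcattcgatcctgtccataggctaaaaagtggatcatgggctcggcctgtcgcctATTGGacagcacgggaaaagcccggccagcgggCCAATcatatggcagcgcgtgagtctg

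These windows lie at chr13:119690101-119690350 on the plus strand (Hmgcs1), chr9:42264301-42264550 on the minus strand (Sc5d), chrX:8193513-8193762 on the minus strand (Ebp), chr3:89454291-89454540 on the plus strand (Pmvk) and chr8:122443423-122443672 on the minus strand (Mvd). Hmgcs1 carries the sterol regulatory element with its first base 137 bases before the start, reading TCACCCCAC, between CCAAT matches that begin 176 and 45 bases before the start. Of the 16 enzymes with a window, Hmgcs1 alone matched this spelling of the element, a share of 6.25%, against 1.22% of all 27025 genes with a window and 1.42% of the 8424 tested genes with one. Other spellings and bases outside the windows were not searched, so enzymes without a match are not shown to lack the element. CCAAT was found in 15 of the 16 enzymes (93.8%), against 37.5% of all genes and 40.5% of tested genes. GGGCGG was found in 14 of the 16 (87.5%), against 35.4% of all genes and 63.5% of tested genes. Counted per window, CCAAT was in 78.9% of the 19 enzyme windows and 33.8% of all 32851 windows, GGGCGG in 78.9% and 32.7%, and the sterol regulatory element in 5.26% and 1.05%. A direct-repeat LXR element, searched on both strands in its exact spelling only, was in 0 of the 23 member windows and 0.0152% of all windows. It was also in 0 of the 8424 tested genes with a window. This spelling is too rare for the search to show whether the member windows hold an LXR element. Ggps1 and Hsd17b7, whose levels differed little between livers, each held 3 CCAAT matches. These are matches of letters, not sites shown to be bound.

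**Figure D3:**
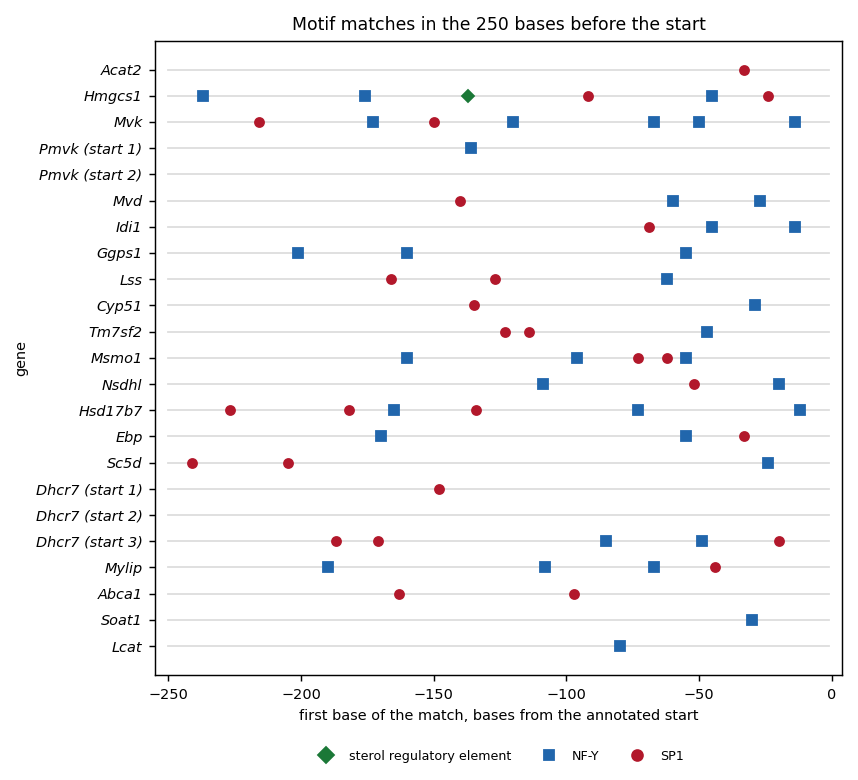
Position of each motif match in the 250 bases before the annotated start of the members with a RefSeq window; the x axis gives the first base of the match counted back from the start, and grey lines mark the windows. The single diamond is the match to the sterol regulatory element in Hmgcs1, and squares (CCAAT) sit on most lines.

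The mevalonate steps turn acetyl-CoA into isoprenoid diphosphates. Acat2, the cytosolic thiolase that joins 2 molecules of acetyl-CoA, stood at 54.3, 10.4 and 13.5 FPKM in AlbCre livers 1, 2 and 3, against 46.6, 41.0 and 26.8 FPKM in control livers 1, 2 and 3. Hmgcs1, which makes HMG-CoA, stood at 348, 32.4 and 47.8 FPKM in AlbCre livers, against 284, 281 and 102 FPKM in controls. In both genes AlbCre liver 1 was the highest of all livers and AlbCre livers 2 and 3 the lowest. The log2 difference was -0.87 for Acat2 (SE 0.59, limma adjusted p = 0.667) and -1.29 for Hmgcs1 (SE 0.91, limma adjusted p = 0.680). Acat2 shares 33.9% of its 75-base stretches with its paralogue Acat3, so reads of this length may be split between them and its level is uncertain. The exons of Hmgcs1 overlap those of Gm48342 on the other strand. Neither gene was called without AlbCre liver 1 (limma adjusted p = 0.0522 for Acat2 and 0.0849 for Hmgcs1).

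Mvk and Pmvk, the kinases that add the phosphates to mevalonate, were also lowest in AlbCre livers 2 and 3. Mvk was at 21.7, 3.50 and 5.47 FPKM in AlbCre livers 1, 2 and 3, against 16.5, 24.6 and 15.6 FPKM in control livers. Pmvk was at 99.4, 17.1 and 17.8 FPKM in AlbCre livers, against 116, 70.4 and 58.0 FPKM in controls. AlbCre liver 1 was within the control range for both, and AlbCre livers 2 and 3 lay well below it. Mvd, which decarboxylates the product to isopentenyl diphosphate, was at 39.4, 1.86 and 3.02 FPKM in AlbCre livers, against 36.0, 33.9 and 9.67 FPKM in controls, and control liver 3 was thus far below the other controls. Its log2 difference was -1.63 (SE 1.05, limma adjusted p = 0.644), and -2.82 without AlbCre liver 1 (limma adjusted p = 0.0791), where Mvk (-1.86, limma adjusted p = 0.0372) and Pmvk (-2.10, limma adjusted p = 0.0400) passed.

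Idi1, the isomerase that supplies dimethylallyl diphosphate, stood at 15.2, 0.592 and 1.97 FPKM in AlbCre livers 1, 2 and 3, against 10.8, 12.1 and 8.25 FPKM in control livers. At the estimated depth, 0.592 FPKM of Idi1 corresponds to about 25.4 reads, and the control values to between 345 and 530 reads. Fdps, which condenses these units to farnesyl diphosphate, stood at 237, 10.1 and 15.5 FPKM in AlbCre livers, against 248, 193 and 141 FPKM in controls. Fdps had the most negative difference of the 26 genes (log2 -2.43, SE 1.11, 95% interval -5.09 to 0.23, limma adjusted p = 0.534). Without AlbCre liver 1 it was -3.81 (SE 0.28, limma adjusted p = 0.0122), and AlbCre livers 2 and 3 held 5.23 and 8.01% of the control mean. Fdps (mm10, minus strand of chromosome 3, 89093588 to 89101959) shares 23.5% of its 75-base stretches with Gm43738 and Gm3571, and Idi1 shares 16.7% with Gm13502 and Gm7654. The exons of Fdps also overlap those of Gm43738 on the same strand, and the exons of Idi1 those of Gm48574 on the other strand. Some reads of Fdps and Idi1 may therefore be split with these genes, and their levels are uncertain to that extent.

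Ggps1, which extends farnesyl to geranylgeranyl diphosphate on a branch toward protein prenylation, did not follow the enzymes before it. It stood at 3.27, 2.70 and 2.21 FPKM in AlbCre livers 1, 2 and 3, against 2.73, 2.50 and 2.12 FPKM in control livers. The groups overlapped (log2 difference 0.11, SE 0.16, 95% interval -0.27 to 0.49, limma adjusted p = 0.870). Its exons overlap Arid4b on the other strand, and the sources used here do not say whether counting used strand.

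**Figure D4:**
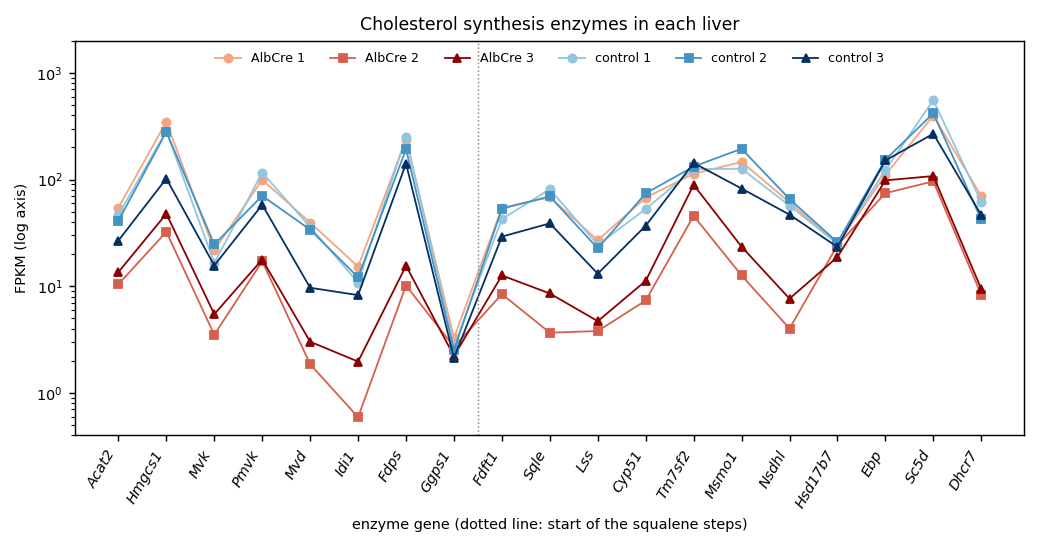
FPKM (log axis) of the 19 synthesis enzymes along the pathway, with 1 line per liver: AlbCre livers in red shades and control livers in blue shades. The lines of AlbCre livers 2 and 3 run below the others except at Ggps1 and Hsd17b7. AlbCre liver 1 is within the control range for 9 enzymes, above it for 8 and below it for 2.

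The squalene steps commit the carbon to sterols. Fdft1, squalene synthase, stood at 54.4, 8.42 and 12.6 FPKM in AlbCre livers 1, 2 and 3, against 42.6, 53.4 and 29.2 FPKM in control livers. Sqle, squalene epoxidase, stood at 68.3, 3.67 and 8.55 FPKM in AlbCre livers, against 81.1, 69.4 and 38.8 FPKM in controls. Lss, which closes the rings to form lanosterol, stood at 27.0, 3.80 and 4.70 FPKM in AlbCre livers, against 24.4, 22.6 and 13.1 FPKM in controls. For all of these, AlbCre livers 2 and 3 were below every control while AlbCre liver 1 was within or above their range. Without AlbCre liver 1 all passed, with limma adjusted p of 0.0458 for Fdft1 (log2 difference -1.87), 0.0356 for Sqle (-3.20) and 0.0401 for Lss (-1.96). The exons of Fdft1 overlap those of Ctsb, and the exons of Lss those of 4930483K19Rik, on the other strand.

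Cyp51, Tm7sf2, Msmo1, Nsdhl and Hsd17b7 act in the stretch of the pathway where lanosterol loses its methyl groups. Cyp51, the lanosterol demethylase, stood at 67.6, 7.35 and 11.2 FPKM in AlbCre livers 1, 2 and 3, against 52.9, 74.2 and 36.9 FPKM in control livers. Msmo1, the methylsterol monooxygenase, stood at 146, 12.6 and 23.4 FPKM in AlbCre livers, against 126, 194 and 82.3 FPKM in controls. Nsdhl, a sterol dehydrogenase, stood at 61.2, 4.01 and 7.64 FPKM in AlbCre livers, against 56.8, 65.6 and 46.8 FPKM in controls. In each of these, AlbCre liver 1 lay inside the control range and AlbCre livers 2 and 3 beneath it. The log2 differences were -1.49 (SE 0.77) for Cyp51, -1.80 (SE 0.86) for Msmo1 and -2.03 (SE 0.88) for Nsdhl, with limma adjusted p of 0.577, 0.550 and 0.512. Without AlbCre liver 1 they were -2.41, -2.80 and -3.11, with limma adjusted p of 0.0372, 0.0423 and 0.0161. Cyp51 exons overlap those of Akap9 on the other strand.

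Tm7sf2, a sterol reductase of the same stretch, had a smaller difference, in which all AlbCre livers took part. It stood at 113, 45.7 and 89.2 FPKM in AlbCre livers 1, 2 and 3, against 125, 132 and 143 FPKM in control livers, with no overlap (log2 difference -0.78, SE 0.32, limma adjusted p = 0.503). Its exons overlap those of Vps51 on the same strand, so some of its reads may belong to that gene. Hsd17b7, a ketosteroid reductase, stood at 24.8, 24.2 and 18.8 FPKM in AlbCre livers, against 25.1, 25.8 and 23.3 FPKM in controls. Its groups overlapped and the difference was small (log2 -0.13, SE 0.14, 95% interval -0.47 to 0.20, limma adjusted p = 0.790). AlbCre liver 2, the lowest liver for 17 enzymes, was within the control range for Hsd17b7.

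Ebp, Sc5d and Dhcr7 complete the sterol nucleus. Ebp, the sterol isomerase, stood at 111, 74.5 and 98.2 FPKM in AlbCre livers 1, 2 and 3, against 122, 153 and 151 FPKM in control livers. Every AlbCre liver was below every control, and Ebp had the smallest p of the 19 enzymes (log2 difference -0.60, SE 0.19, limma unadjusted p = 0.0168, adjusted p = 0.422). Sc5d, the sterol desaturase, stood at 397, 96.1 and 108 FPKM in AlbCre livers, against 555, 417 and 268 FPKM in controls. Dhcr7, which reduces the last intermediate on the 7-dehydrocholesterol route, stood at 70.0, 8.32 and 9.42 FPKM in AlbCre livers, against 61.5, 42.3 and 46.4 FPKM in controls. AlbCre liver 1 was the highest of all livers for Dhcr7 and within the control range for Sc5d. Without AlbCre liver 1 Dhcr7 passed (log2 difference -2.35, SE 0.19, limma adjusted p = 0.0133), and so did Sc5d (limma adjusted p = 0.0477). Dhcr7 also passed without both libraries numbered 1 (limma adjusted p = 0.0230). That fit drops AlbCre liver 1 too, so it is not a separate check.

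Genes of uptake and transport differed in direction. Scarb1, which encodes the receptor that takes up cholesteryl ester from high density lipoprotein, stood at 108, 97.6 and 115 FPKM in AlbCre livers 1, 2 and 3, against 60.6, 78.0 and 66.6 FPKM in control livers. All AlbCre livers were above all controls, AlbCre liver 1 included. Its mean was 107 ± 8.62 FPKM in AlbCre livers and 68.4 ± 8.85 FPKM in control livers (SD, n = 3 each), and its log2 difference of 0.64 (SE 0.14, 95% interval 0.30 to 0.98) had the smallest p of the 26 genes (limma unadjusted p = 0.00330, adjusted p = 0.317). It passed only with sample quality weights (limma adjusted p = 0.0261), within 0.0261 to 0.983 over 17 alternatives. The gene occupies 125277087 to 125341094 of chromosome 5 (mm10, minus strand).

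Stard4, a carrier that moves cholesterol between membranes, followed the enzymes. It stood at 29.9, 5.93 and 10.4 FPKM in AlbCre livers 1, 2 and 3, against 39.7, 25.1 and 29.4 FPKM in control livers, with AlbCre liver 1 inside the control range. Its log2 difference was -1.24 (SE 0.53, limma adjusted p = 0.506), and -1.84 without AlbCre liver 1 (limma adjusted p = 0.0446). Mylip, a ubiquitin ligase that marks lipoprotein receptors for breakdown and an LXR target, stood at 5.57, 4.92 and 4.10 FPKM in AlbCre livers, against 6.84, 2.21 and 6.71 FPKM in controls. Control liver 2 was the lowest of all livers for Mylip, and the sign of its difference (log2 0.01, SE 0.36, limma adjusted p = 0.995) turned under both other scalings of the libraries (-0.060 and -0.0081).

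Efflux and esterification genes overlapped between the groups. Abca1, the transporter that loads cholesterol onto nascent high density lipoprotein and an LXR target, stood at 29.0, 12.9 and 16.1 FPKM in AlbCre livers 1, 2 and 3, against 29.8, 19.3 and 20.6 FPKM in control livers. AlbCre livers 2 and 3 were below every control and AlbCre liver 1 was close to the highest control (log2 difference -0.30, SE 0.31, limma adjusted p = 0.790; -0.62 and 0.221 without AlbCre liver 1). Soat2, the sterol acyltransferase of hepatocytes, stood at 27.6, 25.0 and 17.1 FPKM in AlbCre livers, against 30.4, 32.5 and 23.9 FPKM in controls (log2 difference -0.32, SE 0.21, limma adjusted p = 0.654). Soat1, the acyltransferase of macrophages and other cells, stood at 3.00, 0.660 and 1.10 FPKM in AlbCre livers, against 2.12, 0.606 and 1.25 FPKM in controls. The liver numbered 1 was the highest and the liver numbered 2 the lowest for Soat1 in each group, as for the summed macrophage markers (555, 142 and 273 FPKM in AlbCre livers 1, 2 and 3, against 405, 93.7 and 345 FPKM in control livers), whose part in this value was not tested.

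Lcat, a secreted enzyme that esterifies cholesterol in plasma lipoproteins, ran the other way from the synthesis enzymes. It stood at 229, 500.3 and 476 FPKM in AlbCre livers 1, 2 and 3, against 235, 367 and 396 FPKM in control livers. AlbCre liver 1 was the lowest of all livers and AlbCre livers 2 and 3 were the highest (log2 difference 0.22, SE 0.36, limma adjusted p = 0.885). Without AlbCre liver 1 the difference was 0.59 (SE 0.25, limma adjusted p = 0.303), so it was not called there.

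**Figure D5:**
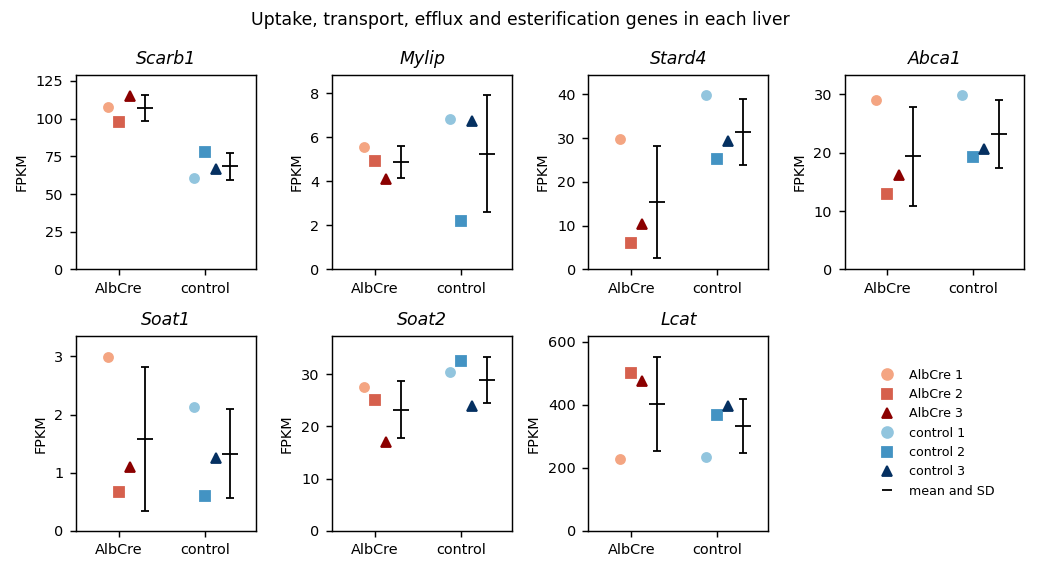
FPKM of the 7 uptake, transport, efflux and esterification genes in each liver, with the mean and SD of each group beside the points and every axis starting at 0. Scarb1 shows AlbCre livers above control livers with no overlap, from 97.6 against at most 78.0 FPKM, and the other panels overlap.

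A list of 35 related genes was followed beside the members, of which 33 were tested and 0 were called by limma; at an unadjusted p under 0.05, 4 were lower and 2 higher, where 3.59% of all genes were lower and 6.34% higher. The list's median log2 difference was -0.02. Among 7 regulators, Srebf1, which encodes the lipogenic factor SREBP1, held 93.0, 5.00 and 9.42 FPKM in AlbCre livers 1, 2 and 3, against 93.4, 99.4 and 87.3 FPKM in control livers. It was thus near control level in AlbCre liver 1 and low in AlbCre livers 2 and 3, the order seen in the enzymes. AlbCre livers 2 and 3 both lay below every control for 20.1% of all genes tested. Srebf1 passed without AlbCre liver 1 (log2 difference -3.57, limma adjusted p = 0.0120). That fit drops the liver seen not to share the low levels, so its value is a description. Insig2, which encodes a protein that retains SREBP in the endoplasmic reticulum, held 120.0, 290.0 and 152 FPKM in AlbCre livers, against 54.9, 61.8 and 71.5 FPKM in controls. Here all AlbCre livers exceeded all controls (log2 difference 1.47, SE 0.33, limma adjusted p = 0.317; 0.0419 with sample quality weights). Nr1h3, the gene of LXR alpha, held 73.5, 62.0 and 76.6 FPKM in AlbCre livers, against 59.0, 68.2 and 74.6 FPKM in controls.

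Of 12 further uptake, lysosomal and transport genes, 11 were tested and 1 was higher at an unadjusted p under 0.05, as were 6.34% of all genes. This was Lipa, the lysosomal acid lipase that frees cholesterol from its esters. Lipa held 154, 147 and 141 FPKM in AlbCre livers 1, 2 and 3, against 123, 99.1 and 109.8 FPKM in control livers, with no overlap, as for 10.7% of all genes in this direction (log2 difference 0.42, SE 0.13, limma adjusted p = 0.422). Lsr, a lipoprotein receptor gene, held 161, 62.1 and 66.4 FPKM in AlbCre livers, against 145, 111 and 98.7 FPKM in controls. Lrp1, a receptor for lipoprotein remnants, held 102, 59.5 and 87.0 FPKM in AlbCre livers, against 84.7, 58.9 and 113 FPKM in controls. Lsr was again lowest in AlbCre livers 2 and 3, while Lrp1 overlapped throughout; neither was called.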

How the data were processed

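Poly(A) RNA of 6 mouse livers was measured. Per the labels' protocols, libraries came from an Ultra Directional kit and were read single-end at 75 bases on a NextSeq 500. The submitters' processing notes name the authors' tools STAR and DESeq2 and the build mm10, without roles or versions. The deposited table holds FPKM made by the authors, with a column for each library; its header names no unit, which was inferred from the numbers. The sources used here do not give the quantifier, annotation or use of strand.

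Library read totals were inferred from the spacing of FPKM values under 0.5 of genes with 1 transcript over 1500 bases (length less 200 bases): 15180000 to 17620000 in AlbCre and 14790000 to 16520000 in control livers, where 60.4 to 63.8% of these values lay within 0.05 of a whole read and chance gives 10%. At this depth 1 read on 2000 bases is worth 0.0315 to 0.0376 FPKM; read equivalents of a gene use its longest transcript.

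The 10963 genes that reached 1 FPKM in 3 or more libraries were tested on log2(FPKM + 1), a scale that understates changes of low genes, with limma 3.58.1 in R 4.3.3, an intensity trend and Benjamini-Hochberg adjustment at 0.05. Differences are AlbCre minus control. The exact two-sided permutation test of 3 against 3 cannot go below 0.1. Deviations from the group means correlated at 0.477, 0.279 and 0.283 between libraries with the same number. Between libraries with different numbers the correlations ran from -0.384 to 0.12. Centring on means of 3 livers ties these values to each other, and the labels state no pairing, so they do not settle whether the samples are paired. The script was tested on simulated data. Leaving out a library kept the same genes; 17 alternatives were run, 3 of them chosen after seeing the data. No 2 libraries held identical values (0 pairs).

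The 26 genes, lists and motifs were chosen with earlier results of these data known. Named related genes are those that pass or, where none passes, the 3 of highest FPKM in each part of the list; Abcg8 and Cyp7b1 were named after their values were seen, as were the Mvd promoter and the limit to windows free of annotated exons. Loci, exon overlaps and shared 75-base stretches come from GENCODE M21 (GRCm38).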

Additional observations from a re-analysis of the deposited data

How the results depend on the processing

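The 18 enzymes with a lower mean were lower under all 17 alternatives, and 0 members were called under 14 of them; the exceptions were the fit without AlbCre liver 1 (13 members lower), sample quality weights (10 lower and 1 higher) and the fit without both libraries numbered 1 (3 lower). With sample quality weights limma called 311 genes higher and 226 lower. At an unadjusted p under 0.05 stood 2953 genes, with 21 members lower, while the efflux and esterification median was -0.32. The replicate block gave 1773 such genes and 10 such members, and changed no other call. Members lower at an unadjusted p under 0.05, 2 in all, numbered 1 with a pseudocount of 0.1, without a filter, with a filter at 5 FPKM and without the trend, 4 with quantile normalization and 5 with median ratio scaling. The filter at 5 FPKM also left 1 gene called lower and an efflux median of -0.30.

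Leaving out 1 liver gave 0 to 19 members lower at an unadjusted p under 0.05, 0 to 13 members called lower, 1 to 78 genes called higher, 1 to 75 called lower and 662 to 1924 at an unadjusted p under 0.05. The uptake median ran from -0.42 to 0.23 and the efflux median from -0.36 to -0.022. Without both libraries numbered 1, 2 or 3, genes called higher numbered 16, 3 and 3, and members lower at an unadjusted p under 0.05 numbered 19, 0 and 0. Without those numbered 1, 16 genes were called lower. Genes at an unadjusted p under 0.05 numbered 464 without those numbered 2, where the uptake median was -0.43, and 394 without those numbered 3, where 0 members were higher at that level.

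Signs turned in these differences, which the fit of all livers did not call. Mylip was -0.060 with quantile normalization, -0.0081 with median ratio scaling, -0.34 with weights, -0.43 without the libraries numbered 2 and -0.42 to 0.23 with 1 liver left out. With weights Ggps1 was -0.039, Soat1 -0.16, Fnta 0.020, Nus1 -0.096 and Prkci -0.022. Nus1 was -0.0055 with quantile normalization. Soat1 was -0.027, Nr1h3 -0.048 and Fnta 0.036 without the libraries numbered 1, Cyp8b1 -0.77 without those numbered 2 and Lrp1 0.14 without those numbered 3. With 1 liver left out, the range was -0.26 to 0.37 for Soat1, -0.0092 to 0.59 for Lcat, -0.018 to 0.16 for Nr1h3, -0.025 to 0.12 for Nus1, -0.48 to 1.83 for Cyp8b1 and -0.27 to 0.19 for Lrp1. The cause of these changes was not tested.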

Other observations

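Other branches that draw on mevalonate products, prenylation, dolichol and ubiquinone synthesis, showed small differences from control levels. All 8 genes of this part were tested, 0 were called by limma and 0 had an unadjusted p under 0.05, with log2 differences from -0.15 to 0.18. Fnta, a subunit of the farnesyl and geranylgeranyl transferases, held 19.8, 23.1 and 22.7 FPKM in AlbCre livers 1, 2 and 3, against 24.5, 24.4 and 20.4 FPKM in control livers. Coq2, which attaches the isoprenoid tail of ubiquinone, held 25.3, 22.2 and 23.0 FPKM in AlbCre livers, against 21.0, 20.1 and 20.9 FPKM in controls, and Nus1, of dolichol synthesis, held 16.4, 15.6 and 13.2 FPKM in AlbCre livers, against 15.3, 14.6 and 14.0 FPKM in controls.

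Genes of biliary sterol export and bile acid synthesis, 7 of 8 tested, had 3 members lower at an unadjusted p under 0.05, where 3.59% of all genes were lower, and 0 called, where 0.0274% of all genes were. Abcg5 and Abcg8 encode the partners of a transporter that exports sterols into bile. Abcg5 held 52.1, 38.7 and 47.4 FPKM in AlbCre livers 1, 2 and 3, against 61.3, 79.6 and 63.2 FPKM in control livers, and Abcg8 held 36.5, 33.9 and 39.5 FPKM in AlbCre livers, against 58.7, 56.7 and 54.2 FPKM in controls. For both, every AlbCre liver lay below every control, AlbCre liver 1 included (log2 differences -0.55 and -0.62, SE 0.17 and 0.11, limma adjusted p = 0.398 and 0.246). Cyp7b1, an oxysterol hydroxylase, showed the same separation, found in this direction for 5.56% of all genes, at 10.7, 10.9 and 9.52 FPKM in AlbCre livers against 14.6, 34.7 and 18.7 FPKM in controls (log2 difference -0.97, SE 0.30, limma adjusted p = 0.412). Cyp27a1, the sterol 27-hydroxylase, held 222, 218 and 229.6 FPKM in AlbCre livers against 199, 384 and 296 FPKM in controls. Cyp8b1, the sterol 12-alpha-hydroxylase, held 19.0, 489 and 308 FPKM in AlbCre livers against 121, 71.8 and 146 FPKM in controls, so AlbCre liver 1 lay below and AlbCre livers 2 and 3 above all controls.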
